A study of Homo sapiens with 12 samples.

Results

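Transcripts of 10 genes of the BCL2 family were followed across 6 sorted populations of gastric cancer cells. The genes were taken by name: the anti-apoptotic BCL2, BCL2L1 and MCL1, the effectors BAX and BAK1, and the BH3-only genes BID, BIK, BAD, BCL2L11 and PMAIP1. Each has its own entry in the expression table, so they make up 10 of the 34595 genes with a value. The samples came from 3 established gastric cancer cell lines, KATO-III, SNU-216 and SNU-601, grown in RPMI1640 medium with calf serum and given no drug. Each line was stained with an antibody against CD133, a membrane glycoprotein encoded by PROM1 and used as a marker of cancer stem cells, and was sorted by flow cytometry. In each line the CD133+ fraction held the brightest 10% of cells and the CD133- fraction the dimmest 6%, and the cells between these gates were not collected. RNA of each of the 6 populations was measured on 2 Illumina HT-12 v3 BeadChips, 12 arrays in all, and the question was how gene expression differs between the fractions. The deposited description of the design names SNU201 where every array label names SNU-216, and the labels were followed. No source says whether the 2 arrays of a population came from separate sorts or from 1 RNA. The p-values of tests within a line or between lines therefore measure the spread between these arrays, which may be technical. Those over all lines together also take in how far the difference between fractions varied from line to line.

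Members of the BCL2 family decide at the outer mitochondrial membrane whether a cell enters apoptosis. BAX and BAK1 form the pores that release cytochrome c, and BCL2, BCL-xL (the main product of BCL2L1) and MCL1 hold them in check. The BH3-only proteins act upstream: they bind the anti-apoptotic proteins, and some of them, BIM (from BCL2L11) and cleaved BID among them, also activate BAX and BAK directly. NOXA, the product of PMAIP1, binds MCL1 in preference to the other guardians. Much of the pathway is set by protein cleavage, phosphorylation and turnover, none of which a transcript array measures.

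Values are normalized intensities, which carry no meaning between genes, because each gene is read by its own probe. Intensities under a floor of 32.7, set from the scatter of the values below 0, have no order and were raised to it for the tests. Such values, where printed or summed, are not ranked. A population wholly under the floor adds no spread to a fit, so SEs and p-values of that gene understate the spread between arrays. Differences are log2 of CD133+ over CD133- intensity, tested with limma over 20147 genes, and a difference was called at an adjusted p under 0.05. With 2 arrays in each fraction of a line, fractions that do not overlap are common even without a difference. BMF, another BCL2 family gene, was under the floor on every array, and its fractions were still apart in every line. A lack of overlap is therefore only a description and adds no support to a call. Each array had 16320 to 16474 genes above the floor, and the median SD between the 2 arrays of a population was 0.13 on the log2 scale. PROM1 itself lay between 1315 and 9513, above the floor on all 12 arrays, and was higher in CD133+ cells by 1.10 in KATO-III, 2.02 in SNU-216 and 1.86 in SNU-601 on the log2 scale. The epithelial markers EPCAM, CDH1, KRT8, KRT18 and KRT19 were above the floor on all 12 arrays. Of 10 markers of leukocytes, fibroblasts and endothelium, 6 (PTPRC, CD3E, DCN, PECAM1, VWF and CDH5) were under the floor on every array. CD14 was highest in KATO-III at 835 to 1242, COL1A1 was highest in SNU-601 at 139 to 196, and COL1A2 was above the floor on 1 array.

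The 10 members were not shifted in one direction between CD133+ and CD133- cells. Over all lines together 0 of 10 were called, where 2.62% of all tested genes were called higher and 2.11% lower, and 2 members (BID and BIK) had an unadjusted limma p under 0.05. Within single lines, however, 7 members changed, 3 of them in opposite directions in different lines. In CD133+ cells of KATO-III, BCL2L1, BID, BCL2L11 and PMAIP1 had higher intensity and MCL1 and BIK lower intensity, 4 and 2 of the 10, where 18.7% of all tested genes were higher and 20.6% lower. In SNU-216, MCL1 and BID were higher and BIK, BAD and BCL2L11 lower, 2 and 3 of the 10, beside 14.6% and 14% of all tested genes. In SNU-601 BIK was higher and was the only member called, beside 8.59% of all tested genes higher and 7.78% lower. The median difference of the 10 members was 0.07 in KATO-III, -0.10 in SNU-216 and 0.00 in SNU-601, and that of all tested genes was 0.00 in each. BCL2, BAX and BAK1 were called in no line. In bulk RNA of a sorted fraction, fewer cells with a transcript and less of it in each cell cannot be told apart.

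**Figure D1:**
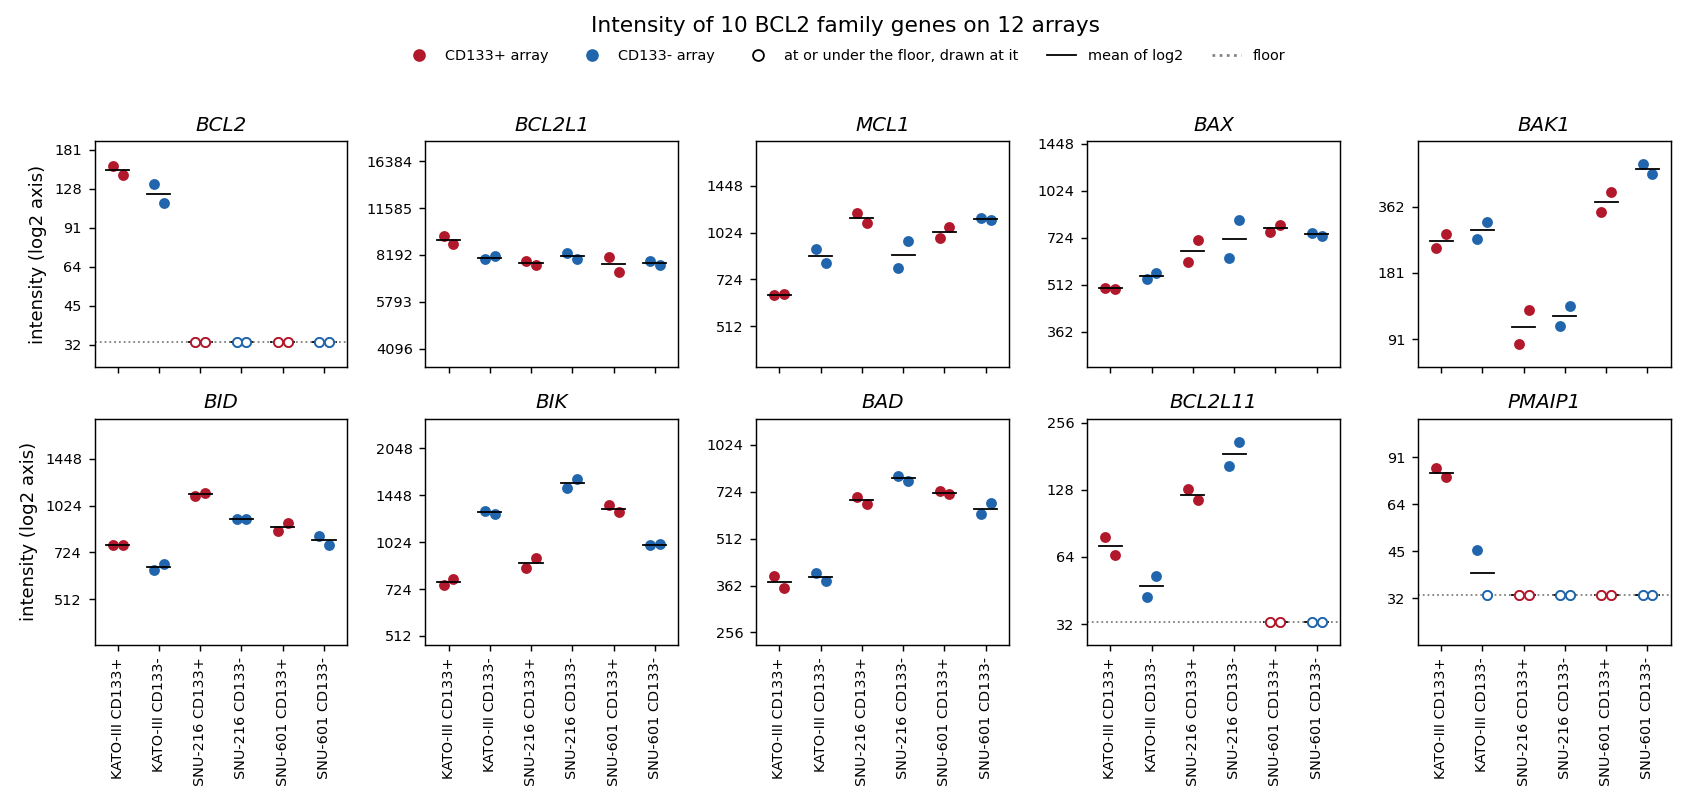
Normalized intensity (log2 axis, a separate range in each panel) of the 10 BCL2 family members on the 12 arrays, CD133+ in red and CD133- in blue. Each point is an array, each short bar the mean of the log2 values of 2 arrays, and the dotted line the floor of 32.7, at which open points under it are drawn. BIK in CD133+ cells lies below CD133- cells in KATO-III and SNU-216 and above them in SNU-601, and BCL2 is above the floor only in KATO-III.

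BIK, a BH3-only protein of the endoplasmic reticulum membrane, gave the clearest difference between fractions and changed in all 3 lines. In KATO-III its intensity was 748 and 782 in CD133+ cells and 1293 and 1262 in CD133- cells. In SNU-216 it was 848 and 914 in CD133+ cells against 1527 and 1635 in CD133- cells. SNU-601 had the opposite order, with 1343 and 1279.7 in CD133+ cells and 1001 and 1012 in CD133- cells. The fractions did not overlap in any of the lines. CD133+ cells were thus 1.67-fold lower in KATO-III (log2 difference -0.74, SE 0.0573, adjusted p = 1.82e-05) and 1.79-fold lower in SNU-216 (-0.84, adjusted p = 1.83e-05). In SNU-601 they were 1.30-fold higher (0.38, adjusted p = 0.00278). The difference between lines was itself called (adjusted p = 1.75e-05), and all 4 calls were kept under the 21 alternatives tried. Averaged over lines the difference was -0.40 (SE 0.174, adjusted p = 0.188), a mean of effects of opposite sign.

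BCL2L11 encodes BIM, a BH3-only protein that binds every anti-apoptotic member. Its intensity in KATO-III was 78.3 and 65.1 in CD133+ cells and 42.3 and 52.7 in CD133- cells. SNU-216 had 129 and 115 in CD133+ cells and 163 and 211 in CD133- cells. The fractions did not overlap in either line, and their order was opposite. In SNU-601 all 4 arrays, at 16.1 to 19.8, lay under the floor, so no difference can be given there. CD133+ cells were higher by 0.60 on the log2 scale in KATO-III (SE 0.174, adjusted p = 0.0240) and fell by 0.61 in SNU-216 (adjusted p = 0.0292), and the difference between lines was called (adjusted p = 0.0105). Both calls within a line rested on single arrays and on how low values were treated. With a floor of 16 or with no gene filtered out, the KATO-III call was lost (adjusted p = 0.0694 and 0.0769). The SNU-216 call was lost in the same settings (0.0879 and 0.0931). An offset of 100 in place of the floor also ended the KATO-III call (0.195), and a floor of 100 left no difference there. The KATO-III call was lost without CD133+ replicate 1 (adjusted p = 0.140) or CD133- replicate 1 (0.146), and the offset of 100 in place of the floor took the difference to 0.22. The SNU-216 call was lost without CD133+ replicate 1 (0.0627), CD133+ replicate 2 (0.135) or CD133- replicate 2 (0.160).

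PMAIP1, the NOXA gene, lay near the limit of detection. Only 3 arrays had it above the floor, all of them KATO-III: both of CD133+ cells, at 83.5 and 78.4, and the CD133- array at 45.7, while the other CD133- array was at 14.4. In KATO-III the CD133+ intensity was higher by 1.07 on the log2 scale with the dimmer array set to the floor (SE 0.150, adjusted p = 0.000521), and by 0.49 with an offset of 100 and no floor. All 8 arrays of SNU-216 and SNU-601 were under the floor, the highest at 27.8. Raised to the floor, they added no spread to the fit, so the SE and p-values of PMAIP1 understate the spread between arrays. The interaction of line and fraction was called (adjusted p = 0.00424), but not with a floor of 16 (0.129) or the offset (0.391), so that the comparison with the other lines rests on where the floor is put.

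BID links the death receptors to the mitochondria, since caspase-8 cleaves it to its active form. It was the only member above the floor on all 12 arrays that had a higher mean in CD133+ cells of every line. In KATO-III the arrays were at 764 and 767 against 635 and 667, in SNU-216 at 1102 and 1119.9 against 924 and 927. In SNU-601 they were at 847 and 899.6 against 819 and 765. The fractions did not overlap in any line, but the gap in SNU-601 was small. The log2 differences were 0.23 in KATO-III (SE 0.0549, adjusted p = 0.00855), 0.26 in SNU-216 (adjusted p = 0.00661) and 0.14 in SNU-601 (adjusted p = 0.127), and they did not differ detectably between lines (adjusted p = 0.419). Over all lines the difference was 0.21 (95% confidence interval 0.08 to 0.34), which missed the threshold at an adjusted p of 0.0629. With all genes tested, or each array centred on its median, it passed at 0.0150 and 0.0426. Under every other alternative it was not called, with an adjusted p of up to 0.796. The interval treats the 12 arrays as independent, although they come from 6 populations. The KATO-III call was lost without CD133- replicate 1 (adjusted p = 0.0549).

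BAD, which is held inactive by phosphorylation when survival signalling is on, was lower in CD133+ cells of SNU-216 only. There the intensities were 699 and 663 against 814 and 784, a fall of 0.23 on the log2 scale (SE 0.0711, adjusted p = 0.0393). The fractions did not overlap, but the call was lost without any single SNU-216 array, with adjusted p values from 0.0718 to 0.177. It was also lost with the offset of 100 (adjusted p = 0.0899), with no gene filtered out (0.0549) and without the variance trend (0.0565). Omitting either SNU-601 CD133+ array ended it too. In KATO-III the values 389 and 356 against 397 and 374 overlapped (-0.05, adjusted p = 0.672). In SNU-601 the CD133+ arrays, at 726 and 713, lay above the CD133- arrays at 612 and 668 (0.17, adjusted p = 0.154). The difference between lines was called (adjusted p = 0.0278), but not with the offset of 100 (0.0626). That call was lost without SNU-216 CD133+ replicate 2 (0.0786), SNU-216 CD133- replicate 1 (0.0725), SNU-601 CD133+ replicate 1 (0.0740) or 2 (0.0598), or SNU-601 CD133- replicate 1 (0.0819).

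**Figure D2:**
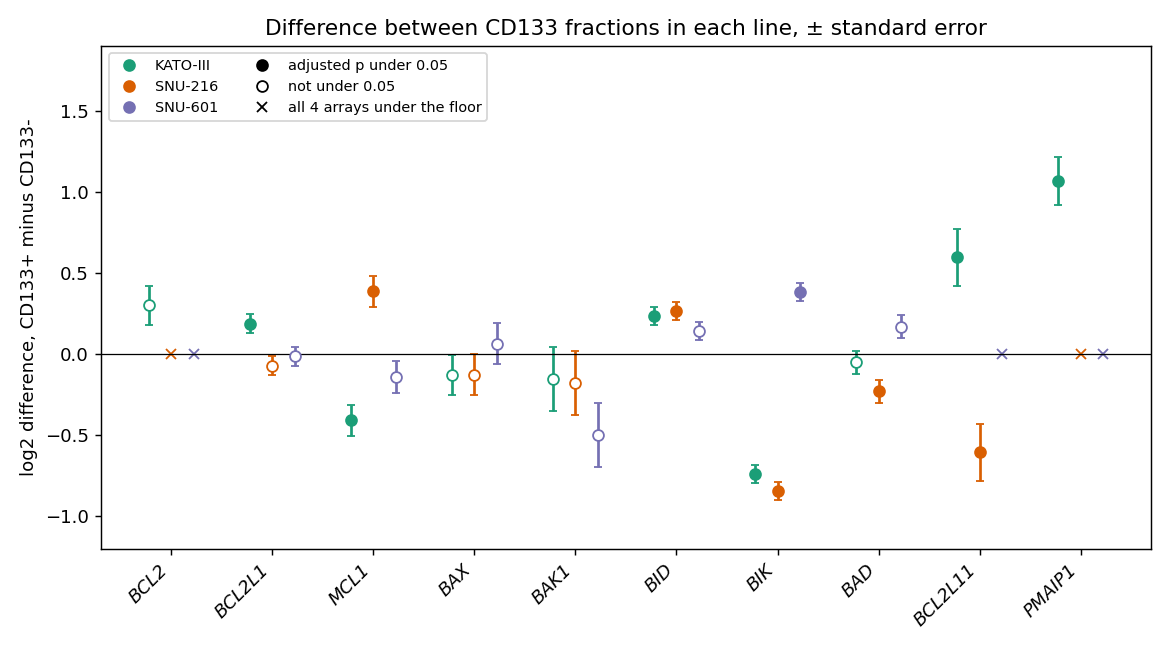
Log2 difference of CD133+ over CD133- intensity for the 10 members in each line, with bars of 1 standard error either way. Filled points were called at an adjusted p under 0.05, open points were not, and crosses stand for lines with all 4 arrays under the floor. BIK, MCL1 and BCL2L11 each have filled points on both sides of 0, whereas BID lies above 0 in all 3 lines.

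Among the anti-apoptotic genes MCL1, whose protein is short-lived, was called in opposite directions in KATO-III and SNU-216. In KATO-III CD133+ cells were at 647 and 648 and CD133- cells at 905 and 817. In SNU-216 CD133+ cells were at 1179 and 1097 and CD133- cells at 786 and 965. The fractions were apart in both lines, with the order turned. CD133+ cells fell by 0.41 on the log2 scale in KATO-III (SE 0.0969, adjusted p = 0.00904) and rose by 0.39 in SNU-216 (adjusted p = 0.0162). In SNU-601 the values 984 and 1069 against 1139.9 and 1122 gave -0.14 (adjusted p = 0.407). The difference between lines was called (adjusted p = 0.00384). With no gene filtered out, the SNU-216 difference was not called (adjusted p = 0.0544). The KATO-III call was lost without CD133- replicate 1 (adjusted p = 0.0670), and the SNU-216 call without CD133+ replicate 1 (0.0983) or CD133- replicate 1 (0.0870), where the difference was 0.24.

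BCL2L1 was at 7232 to 9406 on all 12 arrays and varied least among the members. Its CD133+ intensities in KATO-III, 9406 and 8888, lay above those of CD133- cells, 7930 and 8139, a log2 difference of 0.19 (adjusted p = 0.0312). That small difference was lost without CD133+ replicate 1 (adjusted p = 0.167), CD133- replicate 1 (0.131) or CD133- replicate 2 (0.0734). The KATO-III call was also lost with no gene filtered out (adjusted p = 0.0700) and without the variance trend (0.0782). In SNU-216 the CD133+ arrays were at 7828 and 7595 and the CD133- arrays at 8289 and 7935 (-0.07, adjusted p = 0.437). In SNU-601 they were at 8081 and 7232 against 7827 and 7622 (-0.01, adjusted p = 0.995), with overlapping fractions. The table holds a single value for BCL2L1, so BCL-xL and the pro-apoptotic splice form BCL-xS were not separated.

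BCL2 was measurable in KATO-III only, at 157 and 145 in CD133+ cells and 133 and 112 in CD133- cells. These fractions did not overlap, and the log2 difference of 0.30 (SE 0.120) missed the threshold (adjusted p = 0.0814). It passed without CD133- replicate 1 (adjusted p = 0.0391), with a floor of 100 (0.00937) and without the variance trend (0.0249). The 8 arrays of the other lines, at 6.81 to 20.7, were under the floor, so that nothing can be said of the fractions there. Raised to the floor, these arrays added no spread, so the SE and p-values of BCL2 understate it.

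The effector genes were not called between the fractions of any line. In KATO-III BAX was at 501 and 498 in CD133+ and at 535 and 559 in CD133- cells, and it was at 605 and 714 against 623 and 828 in SNU-216. In SNU-601 it was at 755 and 798 against 752 and 734. The SNU-216 difference of BAX, -0.13, was called without CD133- replicate 1 (-0.33, adjusted p = 0.0486) and turned to 0.08 without CD133- replicate 2. Over all lines the difference was -0.06, and its 95% confidence interval of -0.26 to 0.13 leaves room for a modest change either way (adjusted p = 0.666). BAK1 had its largest difference in SNU-601, where CD133+ cells were at 342 and 421 and CD133- cells at 566 and 506 without overlap. The log2 difference of -0.50 (SE 0.198) was not called (adjusted p = 0.134), although it was with an offset of 100 and no floor (0.0422). The other BAK1 fractions overlapped, at 235 and 273 against 257 and 309 in KATO-III and at 85.8 and 123 against 105 and 129 in SNU-216. Over all lines the difference of BAK1 was -0.28 (95% confidence interval -0.56 to 0.01, adjusted p = 0.213).

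The dependence on the line was tested directly by the interaction of line and fraction. It was called for 5 of the 10 members (MCL1, BIK, BAD, BCL2L11 and PMAIP1), where 44.4% of all tested genes were called, so the members' share was near that of genes in general. MCL1, BIK and BCL2L11 were the members called in opposite directions in different lines. The study selected genes by a signal-to-noise ratio whose formula is not given in the sources used here. Computed as the difference in mean over the summed SDs of the 6 CD133+ and 6 CD133- arrays, such a ratio passed 1 or -1 for 0 of the 10 members, and for 0.96% of all 34595 genes. The members farthest from 0 were BIK at -0.583, PMAIP1 at 0.516 and BID at 0.448. In KATO-III the summed intensity of the 10 markers of other cell types also differed between fractions, from 873 to 878 in CD133+ and from 1222 to 1275 in CD133- cells, nearly all of it CD14. It was -41.8 to 21.1 and -2.29 to -0.177 in the SNU-216 fractions, and 182 to 216 and 121 to 227 in those of SNU-601. The part of these transcripts in the members' differences was not tested.

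For all members except BCL2L1, BIK and PMAIP1 the largest difference between lines exceeded the largest between fractions of a line. Against SNU-216, 4 of 10 members (BCL2, BCL2L1, BAK1 and PMAIP1) were higher and 6 lower in KATO-III, beside 30.3% and 31.7% of all tested genes. Against SNU-601 4 (BCL2, BCL2L1, BCL2L11 and PMAIP1) were higher and 6 lower, beside 28.7% and 29.9%. SNU-216 and SNU-601 differed in 3 members, BID and BCL2L11 higher and BAK1 lower in SNU-216, beside 29.4% and 27.1% of all tested genes. The 4 arrays of a line are 2 populations, and a random block for population left 6 of the 10 calls between KATO-III and SNU-216 and 4 of the 10 between KATO-III and SNU-601. That block ended the calls of BCL2L1 (adjusted p = 0.421 and 0.271) and BIK (0.447 and 0.560) against both lines and those of MCL1 (0.109) and BAX (0.122) against SNU-216. Against SNU-601 it ended those of BAK1 (0.0641), BID (0.115), BCL2L11 (0.0585) and PMAIP1 (0.0530), and between SNU-216 and SNU-601 that of BID (0.0516). How a line was grown or sorted cannot be told apart from the line itself, and CD14 and COL1A1, which also differed between lines, were not tested for a part in these differences.

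BCL2 was at least 4.15-fold higher in KATO-III than in either of the other lines (adjusted p = 2.67e-08 against SNU-216 and 4.17e-08 against SNU-601). The arrays of those lines, raised to the floor, added no spread to that test. BCL2L11 was highest in SNU-216 and lowest in SNU-601. SNU-216 exceeded SNU-601 at least 4.60-fold, KATO-III exceeded SNU-601 at least 1.78-fold, and KATO-III lay below SNU-216 by -1.37 on the log2 scale. BAK1 had the order SNU-601, KATO-III, SNU-216, and each step was called: KATO-III exceeded SNU-216 by 1.29 (adjusted p = 2.82e-05) and was below SNU-601 by -0.75 (adjusted p = 0.00123). The 4 arrays of BAK1 lay between 85.8 and 129 in SNU-216, 235 and 309 in KATO-III and 342 and 566 in SNU-601, so the lines did not overlap. The step from KATO-III to SNU-601 was lost in CD133+ cells alone (adjusted p = 0.0981), and the excess of BCL2L11 in KATO-III over SNU-601 in CD133- cells alone (0.0864). PMAIP1 was above the floor on 3 of the 4 KATO-III arrays and on no array of the other lines. With the fourth array set to the floor, KATO-III was higher by 0.78 on the log2 scale than either other line (adjusted p = 0.000149 and 0.000166), but in CD133- cells alone the difference of 0.24 was not called (adjusted p = 0.339 and 0.357).

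Averaged over fractions, KATO-III had the lowest BAD, BID, MCL1 and BAX. BAD was lower there by -0.96 than in SNU-216 and by -0.84 than in SNU-601, and SNU-216 exceeded SNU-601 by 0.12 (95% confidence interval 0.01 to 0.23), which missed the adjusted threshold (adjusted p = 0.0704). That difference was 0.32 in CD133- cells alone (adjusted p = 0.0171) and -0.08 in CD133+ cells alone (adjusted p = 0.371). MCL1 was lower by -0.42 and -0.53 and BAX by -0.40 and -0.54, with no called difference between SNU-216 and SNU-601. In CD133- cells alone MCL1 in KATO-III was not called against SNU-216 (-0.02, adjusted p = 0.968) or against SNU-601 (-0.40, adjusted p = 0.0627). BAX kept its size in CD133- cells alone against SNU-216 (-0.39, adjusted p = 0.103) and SNU-601 (-0.44, adjusted p = 0.0840) but was not called. BID was lower by -0.52 and -0.24, and SNU-216 exceeded SNU-601 by 0.29. BCL2L1 was higher in KATO-III by 0.12 and 0.16, and the difference between SNU-216 and SNU-601 was not called (0.04, adjusted p = 0.448). The call against SNU-216 was lost with no gene filtered out (adjusted p = 0.0712). Centring each array on its median (0.0749) or leaving out the variance trend (0.0811) ended it too. In CD133- cells alone BCL2L1 was not called between KATO-III and either line (-0.01, adjusted p = 0.822, and 0.06, adjusted p = 0.295). The first of these BCL2L1 calls was lost without KATO-III CD133+ replicate 1 (adjusted p = 0.108), KATO-III CD133- replicate 1 (0.0541) or 2 (0.0918), SNU-216 CD133+ replicate 1 (0.0505) or 2 (0.0944), or SNU-216 CD133- replicate 2 (0.104).

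For BIK the order of the lines depended on the fraction. Averaged over fractions, KATO-III was lower than SNU-216 by -0.26 and than SNU-601 by -0.22. In CD133- cells alone it was higher than SNU-601 by 0.34 (adjusted p = 0.00469). SNU-216 was below SNU-601 in CD133+ cells alone (-0.57, adjusted p = 0.00154) and above it in CD133- cells alone (0.65, adjusted p = 0.000556). The highest BIK population was SNU-216 CD133- at 1581 ± 76.2 and the lowest KATO-III CD133+ at 765 ± 24.4 (SD, n = 2).

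The members also differed in how far they ranged over the 6 populations. BCL2L11, BAK1 and BCL2 spanned 2.50, 2.38 and 2.20 on the log2 scale, the latter and BCL2L11 with their lowest populations at the floor. These ranges exceeded those of 86.5%, 85.2% and 83.1% of all tested genes, whose median range was 1.07. BCL2L1, at 0.26, ranged less than all but 5.60% of tested genes. PMAIP1 spanned 1.31, BAD 1.10, BIK 1.05, MCL1 0.81, BID 0.77 and BAX 0.64.

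For the widest-ranging members, the genes with the most similar profile were sought by Pearson's r over the 6 population means among 6710 well-measured genes. BCL2L11 was most like LOC401127 (r = 0.996), ALB (0.994) and MED24 (0.989). BAK1 was most like MBD4 (0.997), LOC392437 (0.997) and PCK2 (0.995), and BCL2 was most like INTS2 (0.999), SMUG1 (0.996) and ACSL1 (0.995). The 6 points come from 3 lines, so fractions of a line are not independent, and the values are a description with no test. For BCL2 every population of SNU-216 and SNU-601 was set to the floor, so its r rests mostly on KATO-III against the other lines. Both SNU-601 populations of BCL2L11 were set to the floor as well.

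A further 56 genes of the pathway, in 4 lists, were counted in the same fits, and 47 of them were tested. CD133+ cells of KATO-III had 8 of these higher and 15 lower. In SNU-216 10 were higher and 12 lower, and in SNU-601 5 were higher and 6 lower. Over all lines 3 were higher and 1 lower. Of all tested genes, as above, 18.7% were higher and 20.6% lower in KATO-III, 14.6% and 14% in SNU-216, 8.59% and 7.78% in SNU-601, and 2.62% and 2.11% over all lines, and the counts of each list below stand beside these shares. The genes named below for a single line were taken from those with a call kept under all alternatives, a choice made after their values were seen.

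**Figure D3:**
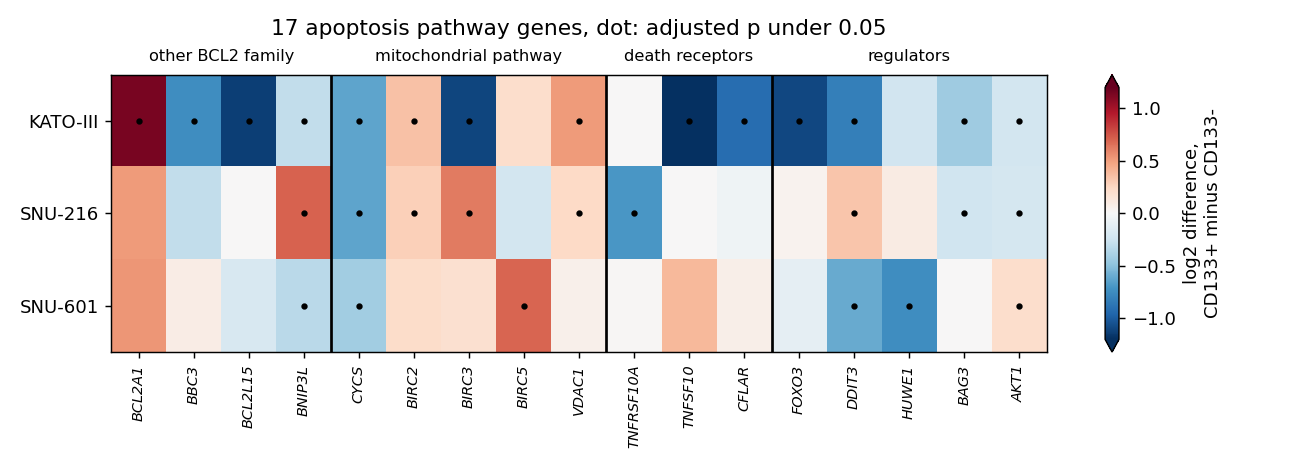
Heat map of the log2 difference of CD133+ over CD133- intensity for 17 pathway genes (columns, grouped by list) in each line, red where CD133+ cells were higher and blue where they were lower, with a dot where the adjusted p was under 0.05. The colour scale ends at 1.2 either way, and TNFSF10 in KATO-III, at -1.68, lies past it. CYCS is blue with a dot in all 3 lines.

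Among the other BCL2 family genes 9 of 13 were tested, and 3 were above the floor on no array. In KATO-III 2 were higher and 5 lower, in SNU-216 2 were higher and 2 lower, and in SNU-601 1 was higher and 1 lower. BBC3, which encodes the BH3-only protein PUMA, fell by 0.74 on the log2 scale in KATO-III CD133+ cells (adjusted p = 0.00292), and BCL2L15 fell by 1.13 there (adjusted p = 3.96e-05). BNIP3L, a mitophagy receptor, rose by 0.70 in SNU-216 (adjusted p = 0.000143) and fell by 0.30 in KATO-III and 0.33 in SNU-601. The KATO-III call was lost without replicate 2 of either fraction (adjusted p = 0.0523 and 0.0590), and the SNU-601 call without any SNU-601 array (0.0606 to 0.0672). BCL2A1, an anti-apoptotic relative of MCL1, was higher over all lines by 0.73 (adjusted p = 0.0408). That call was lost in 17 of 21 alternatives, among them the omission of any array except SNU-601 CD133+ replicate 2, with adjusted p values from 0.0559 to 0.101 on omitting an array.

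Downstream of the mitochondria, 16 of 17 genes were tested. In KATO-III 3 were higher and 3 lower, in SNU-216 6 were higher and 4 lower, and in SNU-601 2 were higher and 2 lower. CYCS, the cytochrome c gene, had the most uniform pattern, lower in CD133+ cells of all 3 lines: by -0.63 in KATO-III, -0.63 in SNU-216 and -0.42 in SNU-601. The SNU-601 call was lost without CD133+ replicate 2 (adjusted p = 0.0545) or CD133- replicate 1 (0.0719). Over all lines it fell by 0.56 (SE 0.0808, adjusted p = 0.00842), a call lost only in the fits that averaged the arrays of a population or gave populations a random block. BIRC2, which encodes the inhibitor of apoptosis cIAP1, was higher over all lines by 0.29 (adjusted p = 0.0233), and this was lost without any single KATO-III array (0.0509 to 0.0621). VDAC1, a channel of the outer mitochondrial membrane, was higher by 0.27 (adjusted p = 0.0474) and was lost without any KATO-III or SNU-216 array or SNU-601 CD133- replicate 1 (0.0589 to 0.112). The BIRC2 call was also lost with the offset of 100 (adjusted p = 0.0511), a random block for population (0.262) and averaged arrays (0.796). That of VDAC1 was also lost with a floor of 16 (0.0559), without the filter (0.123) and without the variance trend (0.0901). A block for replicate number (0.0699), a random block for population (0.287) and averaged arrays (0.796) ended it as well. The inhibitor BIRC3 fell by 1.10 in KATO-III and rose by 0.62 in SNU-216. BIRC5, the survivin gene, rose by 0.70 in SNU-601.

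In the death receptor branch that leads to BID, 8 of 10 genes were tested, 1 higher and 3 lower in KATO-III, 0 higher and 2 lower in SNU-216, and 1 higher and 0 lower in SNU-601. TNFSF10, the gene of the death ligand TRAIL, fell by 1.68 in KATO-III CD133+ cells (adjusted p = 5.67e-05), from 758 in CD133- to 236 in CD133+ cells on average. CFLAR, which encodes an inhibitor of caspase-8 activation, fell by 0.91 in the same line (adjusted p = 4.41e-05). The TRAIL receptor gene TNFRSF10A fell by 0.70 in SNU-216 (adjusted p = 0.00486).

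Of 16 genes that regulate BCL2 family genes or proteins, 14 were tested. In KATO-III 2 were higher and 4 lower, in SNU-216 2 were higher and 4 lower, and in SNU-601 1 was higher and 3 lower. FOXO3, a transcription factor known to act on BCL2L11, fell by 1.09 in KATO-III CD133+ cells (adjusted p = 2.34e-06). DDIT3, the CHOP gene of the stress response, fell by 0.82 in KATO-III and by 0.61 in SNU-601 and rose by 0.33 in SNU-216. The rise was lost without either CD133+ array of SNU-216 (adjusted p = 0.0679 and 0.0651) or CD133- replicate 1 (0.0926). AKT1, whose kinase phosphorylates BAD, fell by 0.22 in KATO-III and by 0.21 in SNU-216 and rose by 0.22 in SNU-601, a rise lost without either CD133+ array (adjusted p = 0.0650 and 0.0539) or CD133- replicate 2 (0.0727) of that line. The co-chaperone gene BAG3 fell by 0.42 in KATO-III and 0.24 in SNU-216. HUWE1, a ubiquitin ligase for MCL1, fell by 0.75 in SNU-601 (adjusted p = 0.00939).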

How the data were processed

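Gene expression was measured on 12 Illumina HT-12 v3 BeadChips, 2 for each of 6 sorted populations. Values deposited by the authors are linear intensities after quantile normalization, 1 per gene symbol. BeadStudio is named in the submitters' processing notes. A background was subtracted, since 32.1% of the values are at or below 0. How it was estimated, how probes were merged into genes and on which slides the arrays lay are not given in the sources used here. Any intensity under a floor of 32.7 (the 1st percentile of the whole table, without its sign) was raised to it, log2 was taken, and genes above it on at least 2 arrays (20147) entered limma 3.58.1 under R 4.3.3 (eBayes with trend, Benjamini-Hochberg adjustment, threshold 0.05). The difference over all lines came from a model with line and fraction (8 residual degrees of freedom), all others from a mean for each of the 6 populations (6 residual degrees of freedom). The scripts were tested on simulated data with known changes. Beside the members, genes of 4 pathway lists were counted, and named where called; some items are not reported here. The members and lists were chosen with earlier results of these data known. Alternatives changed the floor, filter, scaling, variance model, blocks and arrays. The number of arrays limits the precision.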

Additional observations from a re-analysis of the deposited data

Results flagged for a closer look

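The difference between CD133+ and CD133- cells varied with the cell line for 5 members, as an F-test in limma of line by fraction showed. The adjusted p was 1.75e-05 for BIK, 0.00384 for MCL1, 0.00424 for PMAIP1, 0.0105 for BCL2L11 and 0.0278 for BAD. As 44.4% of all tested genes passed the same test, such a result was common in these arrays. Of the other pathway genes described above, the same test gave adjusted p = 2.03e-05 for BIRC3, 2.88e-05 for FOXO3, 9.38e-05 for BNIP3L, 0.000181 for DDIT3 and 0.000260 for TNFSF10. It gave 0.000370 for CFLAR, 0.000490 for BIRC5, 0.000545 for BCL2L15, 0.000681 for BAG3 and 0.000908 for AKT1. VDAC1 had 0.00659, TNFRSF10A 0.0211, BBC3 0.0227 and HUWE1 0.0232, of which TNFRSF10A, BBC3 and HUWE1 lost the call under 3, 6 and 7 of 21 alternatives. No population has the 4 arrays needed to single out a deviating array.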

How the results depend on the processing

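Of 1788 values of the members recomputed under 25 alternatives, 1666 kept their direction and their side of the threshold, 84 lost and 20 gained a call, and 18 changed sign. The cause was not tested for any of them. Over all lines, 953 of all tested genes were called. Without the filter 425 were called, a random block for population left 1, and averaging each population's arrays left 0, where 992 had an unadjusted p under 0.05. Omitting an array gave 229 to 897. Among the members 0 were called, and 1 (BID) without the filter or with arrays centred on the median, and 0 to 0 on omitting an array, as also for the signal-to-noise ratio. In KATO-III, omitting an array gave 6174 to 7823 genes and 3 to 6 members. In SNU-216 it gave 4312 to 5732 genes and 2 to 5 members, and without the filter 2 members were called. In SNU-601 it gave 2148 to 3215 genes and 1 to 1 member, and the offset called 2. For the interaction it gave 7998 to 8359 genes and 4 to 5 members, and the offset called 3.

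Between KATO-III and SNU-216, where 12498 genes and 10 members were called, averaged arrays gave 5122 and 4, the random block 7406 and 6, CD133- cells alone 6 members, and omitting an array 11889 to 12457 and 9 to 10. Between KATO-III and SNU-601, with 11810 and 10, the same alternatives gave 3617 and 1, 6453 and 4, 5 members, and 11126 to 11771 and 10 to 10. Between SNU-216 and SNU-601, with 11388 and 3, averaging gave 5059 genes and the random block 7264, CD133- cells alone 5 members, and omitting an array 11007 to 11309 and 3 to 5.

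Values that changed sign were those of BIK between lines, called after the change: KATO-III less SNU-601 was 0.34 in CD133- cells alone, and SNU-216 less SNU-601 -0.57 in CD133+ cells alone. The others were not called after the change of sign, and of these only BCL2L1 between KATO-III and SNU-216 (-0.014 in CD133- cells alone) had been called before it. In CD133+ cells alone SNU-216 less SNU-601 was 0.15 for MCL1 and -0.080 for BAD. With centred arrays BCL2L1 in SNU-601 was 0.018 and BCL2L11 over all lines 0.023, and the latter was 0.012 with repeated quantile normalization. On omitting an array, the difference between fractions ran from -0.095 to 0.065 for BCL2L1 in SNU-601, from -0.15 to 0.0081 for MCL1 over all lines, from -0.33 to 0.078 for BAX and from -0.43 to 0.080 for BAK1 in SNU-216, from -0.11 to 0.013 for BAD in KATO-III, and from -0.12 to 0.12 for BCL2L11 over all lines.

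The replicate numbers did not pair the arrays: deviations of same-numbered arrays correlated at -0.0116 to 0.0276 between populations. With the replicate number as a block, 471 genes were called over all lines. Of 89 calls of pathway genes between fractions, those of the interaction included, 49 were kept under every alternative. Of those with a direction, 0 changed it. Calls between lines were not counted here, and some changed sign, such as BBC3 in KATO-III less SNU-601 (-0.78 to 0.05 over the alternatives). Low signal limits the members BCL2, BCL2L11 and PMAIP1, for which a population under the floor gives only a bound. It also limits BCL2A1 among the other pathway genes.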
